A study of Homo sapiens with 2 samples.

Results

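The zinc finger genes of chromosome 19 were examined in a list of chromatin immunoprecipitation sequencing (ChIP-seq) peaks for RFX6, which belongs to the RFX (regulatory factor X) family of DNA-binding proteins. Members were chosen by name, as the protein-coding genes of chromosome 19 in the RefSeq table of GRCh38 whose symbol is ZNF or ZFP followed by a digit. This rule gave 255 genes, of which 250 carry a ZNF and 5 a ZFP symbol, among 1451 protein-coding genes of the chromosome (17.6%) and 20037 of the genome. The study held 2 libraries of the human hepatocellular carcinoma (HCC) line MHCC-97H, namely 1 ChIP with an anti-HA antibody and 1 input. In the ChIP library RFX6 carried an HA tag and was overexpressed from a plasmid, so the list describes the tagged and overexpressed protein in 1 cell line. For the input library the labels give only the line, and no file of it was analysed here.

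The list gives intervals of significant enrichment, each with a whole-number score whose meaning is not stated. It held 5019 distinct intervals on the nuclear chromosomes, with a median score of 30 and a median width of 272 bp, and 272 of them lay on chromosome 19. As there was 1 list, no replicate error could be given, and the percentages below carry 95% Wilson intervals that cover counting error only. They treat genes as independent, although many members lie in clusters of duplicated genes. Whether such intervals overlap is therefore described below and is not a test. The read depth is unknown. Genes that RFX6 does not occupy and genes covered by too few mapped reads therefore cannot be told apart, and how reads that match several near-identical zinc finger genes were treated is not stated and its part in the results was not tested.

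Zinc finger proteins of the C2H2 type bind DNA through tandem fingers, each folded around a zinc ion. Many genes for them lie in tandem clusters on chromosome 19, where they arose by repeated duplication, and a large share encode a KRAB domain, which recruits the co-repressor TRIM28 and leads to heterochromatin marked by methylated histone H3. In such a gene the promoter and the first exons lie at the start, whereas the finger array is usually encoded by the last exon. The rule goes by symbol, so it also takes in genes of other kinds, such as ZFP36, which encodes tristetraprolin, an RNA-binding protein with CCCH fingers.

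Of the 255 zinc finger genes, 5 had an interval whose midpoint was within 1 kb of an annotated gene end, and all of these intervals lay at the start. Of all 20037 protein-coding genes, 15.5% had one at an end. The genes were ZNF554, ZNF57, ZNF653, ZNF333 and ZNF837. Before their values are given, the DNA upstream of 4 of them and of 3 neighbours is shown, since it holds most of the interval of ZNF57, parts of those of ZNF554, ZNF837 and ZNF653, and a motif that close neighbours shared. None is shown for ZNF333, since its promoter window and its interval both lie inside the annotated gene. The lines give the bases before the start in the RefSeq promoter table (GRCh38.p14), 5′ to 3′ on the strand of the gene, as far as they lay outside every annotated gene. Capitals mark CCAAT boxes (CCAAT or ATTGG) and, in ZNF554, the core of the ZNF143 motif (TTGTAGT, the reverse complement of ACTACAA). ZNF554 (chr19:2819618-2819867, + strand) and ZNF57 (chr19:2900678-2900927, + strand) had an interval. ZNF555 (chr19:2841225-2841474, + strand), ZNF556 (chr19:2867085-2867334, + strand) and ZNF77 (chr19:2944972-2945221, - strand) are their neighbours in the same cluster and had none. ZNF837 (chr19:58381031-58381280, - strand) and ZNF653 (chr19:11505840-11505928, - strand, 89 bases because ECSIT lies beyond) are the members with the highest scores.
ZNF554: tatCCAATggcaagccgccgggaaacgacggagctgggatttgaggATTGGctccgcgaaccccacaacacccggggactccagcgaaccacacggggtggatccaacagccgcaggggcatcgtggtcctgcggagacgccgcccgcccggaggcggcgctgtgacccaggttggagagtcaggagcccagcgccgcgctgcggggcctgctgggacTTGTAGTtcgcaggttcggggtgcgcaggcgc
ZNF57: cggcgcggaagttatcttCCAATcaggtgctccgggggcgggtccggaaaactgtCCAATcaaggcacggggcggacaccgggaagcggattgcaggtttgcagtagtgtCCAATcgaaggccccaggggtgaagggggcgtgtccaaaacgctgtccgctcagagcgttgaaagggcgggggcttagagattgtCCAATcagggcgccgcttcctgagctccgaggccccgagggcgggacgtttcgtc
ZNF555: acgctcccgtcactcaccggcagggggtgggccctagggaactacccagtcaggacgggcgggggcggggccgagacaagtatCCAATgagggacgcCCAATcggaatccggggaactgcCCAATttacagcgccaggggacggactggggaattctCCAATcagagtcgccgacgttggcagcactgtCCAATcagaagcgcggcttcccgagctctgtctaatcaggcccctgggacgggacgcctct
ZNF556: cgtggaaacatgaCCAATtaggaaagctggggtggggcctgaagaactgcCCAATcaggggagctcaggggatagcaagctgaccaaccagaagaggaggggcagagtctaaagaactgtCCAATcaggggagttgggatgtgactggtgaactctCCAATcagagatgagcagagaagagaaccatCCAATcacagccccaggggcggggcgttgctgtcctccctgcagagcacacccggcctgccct
ZNF77: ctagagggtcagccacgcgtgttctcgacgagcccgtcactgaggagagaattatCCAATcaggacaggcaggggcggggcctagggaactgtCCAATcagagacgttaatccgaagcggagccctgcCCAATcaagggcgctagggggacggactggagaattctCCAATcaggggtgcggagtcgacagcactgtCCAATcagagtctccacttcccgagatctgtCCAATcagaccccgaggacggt
ZNF837: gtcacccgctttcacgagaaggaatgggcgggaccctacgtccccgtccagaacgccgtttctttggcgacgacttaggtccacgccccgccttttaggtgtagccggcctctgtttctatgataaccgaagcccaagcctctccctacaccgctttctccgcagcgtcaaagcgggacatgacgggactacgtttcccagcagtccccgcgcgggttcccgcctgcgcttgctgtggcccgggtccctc
ZNF653: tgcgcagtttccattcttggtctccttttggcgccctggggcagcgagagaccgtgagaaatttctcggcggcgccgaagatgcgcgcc
None of these upstream stretches held the exact letters of the RFX core, GTTGCC, on either strand, and no capital letter marks one. Sites that differ from these letters are not marked.

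The highest score among the members belonged to ZNF653. Its interval, chr19:11505253-11505890, was 638 bp wide and was listed on 4 lines with scores from 38 to 67, and the score of 67 ranked 165 of 5019 (percentile 96.7). The midpoint was 268 bp inside the gene, and the interval began 51 bp before the start and ended 586 bp after it. It was also the only one of the 5 within 1 kb of another annotated gene. The 3′ end of ECSIT, which encodes an adaptor of Toll-like receptor signalling and of complex I assembly, lay 358 bp from the midpoint.

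At ZNF837, the interval chr19:58380833-58381151 had a score of 52 (percentile 88.9), the second highest among the members. It was 319 bp wide and spanned the start, with its midpoint 38 bp inside the gene. ZNF837 was the only member on the long arm with an interval, and it is number 250 of the 255 in order along the chromosome.

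The interval at ZNF333, chr19:14690017-14690317, had a score of 33 (percentile 60.2), close to the median of 32 for all intervals at ends of protein-coding genes. Its midpoint was 380 bp inside the gene, the largest distance among the 5. In the promoter table, however, the start of ZNF333 lies 261 bp inside the gene, and the interval of 301 bp spans that start. ZNF333 stood apart from other members by more than 500 kb on both sides.

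The remaining intervals had scores below the median of the list. At ZNF57, the interval chr19:2900585-2900933 had a score of 27 (percentile 42.7) and a width of 349 bp. It lay almost wholly upstream, from 343 bp before to 5 bp after the start, and 256 bp of it fell in the promoter window. At ZNF554, the interval chr19:2819769-2819968 had a score of 24 (percentile 27.9) and the smallest width in this group, 200 bp, with its midpoint on the first base of the gene. The scores of the 5 intervals thus ranged from 24 to 67, on both sides of the median. With a score of at least 30 required, 3 members (1.18%) had an interval, compared with 9.5% of all protein-coding genes.

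**Figure D1:**
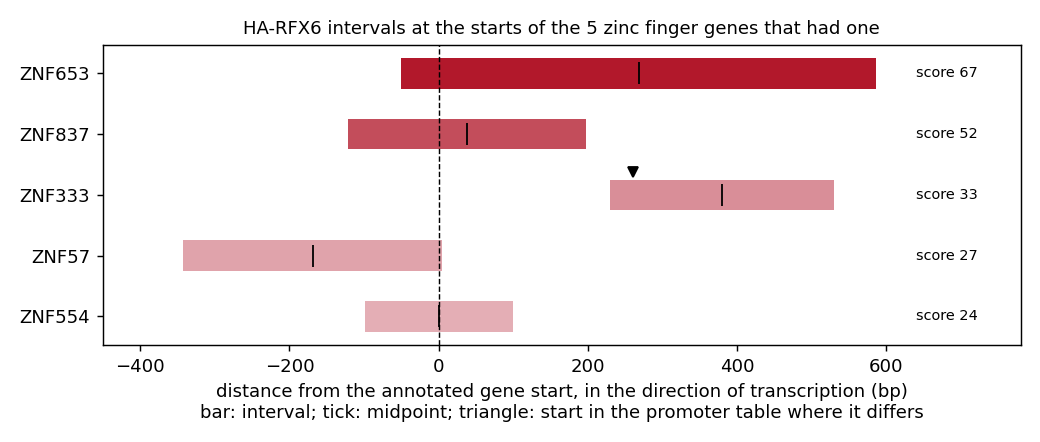
Intervals at the 5 zinc finger genes that had one, drawn as distance in bp from the annotated gene start in the direction of transcription. Each bar is an interval, the tick its midpoint, darker bars have a higher score, and the triangle is the start of ZNF333 in the promoter table. The bars of ZNF653, ZNF837, ZNF57 and ZNF554 cross the annotated start, whereas that of ZNF333 begins 230 bp after it.

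The side of the gene could be read from the strand for 222 of the 255 members, which had an entry in the promoter table. An interval within 1 kb of the start was found at 5 of the 222 (2.25%, 0.966% to 5.16%), compared with 15.1% of the 15843 protein-coding genes with a strand. At the far end, where the finger exon of most such genes lies, 0 of 222 had an interval (Wilson interval up to 1.70%), compared with 1.15% of all. Over 1 kb inside both ends, 0 of the 255 members had an interval, compared with 5.59% of the 20037 protein-coding genes. For the members the Wilson interval reached up to 1.48%, and the rule that a count of 0 allows 3 gave up to 1.18%. On the short arm, 0 of 84 members and 63 of 564 other protein-coding genes (11.2%) had one there. Their Wilson intervals did not overlap. On the long arm it was 0 of 171 and 11 of 632 (1.74%), and these overlapped. Among 92 other protein-coding genes inside the clusters of members, 2 had one (2.17%), and this Wilson interval overlapped that of all members. The median gene length was 23351 bp for the members and 24115 bp for all protein-coding genes, and the part of length was not tested. The finger exons themselves could not be placed, since the tables used here give no exons. The 33 members without an entry, and the 4 with hyphenated (mostly read-through) symbols, had no interval at either end. ZNF and ZFP genes of other chromosomes also had no interval at the far end (0 of 231), while 37 of these 231 had one at the start.

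Distances to the nearest interval were then listed for every member. Just inside the limit of 1 kb was ZNF333 at 380 bp. Just outside was ZNF358 at 1501 bp from its far end, and that interval, chr19:7522422-7522631 with a score of 32, was within 1 kb of an end of MCOLN1, which encodes a lysosomal cation channel. Next came ZNF581 at 8.31 kb and ZNF580 at 10.5 kb, both next to an interval at CCDC106. Of all members, 5 were within 1 kb of an interval, 2 from 1 to 10 kb, 31 from 10 to 100 kb, 141 from 100 kb to 1 Mb and 76 farther than 1 Mb. The median distance was 603 kb, with quartiles of 257 and 1429 kb. On the short arm the median was 333 kb for members and 21.9 kb for the other protein-coding genes. On the long arm, where intervals were sparse for all genes, it was 714 kb and 178 kb.

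**Figure D2:**
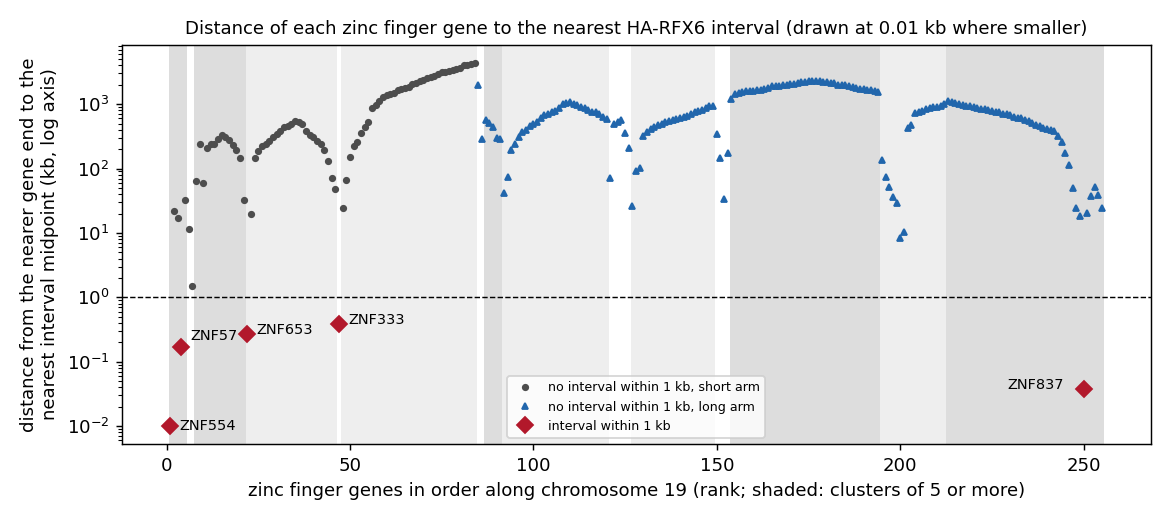
Distance in kb (log axis) from the nearer gene end to the nearest interval midpoint for each of the 255 zinc finger genes, in their order along chromosome 19. Diamonds are the 5 genes within 1 kb (dashed line), circles and triangles are the others on the short and the long arm, and shading marks clusters of 5 or more genes. The highest distance, 4390 kb, is at the short-arm edge of the centromere, and values under 0.01 kb are drawn at 0.01 kb.

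Next, the share of members with an interval at a gene end was compared with that of other genes. It was 1.96% (0.840% to 4.51%) for the members and 11.4% (9.69% to 13.3%) for the other 1196 protein-coding genes of chromosome 19, of which 136 had one. Over the genome the share was 15.5%. The ratio of the share of members to that of the other genes of the chromosome was 0.172, with a 95% interval from 0.0714 to 0.417. This interval was computed on the log scale from the gene counts of both arms pooled. It also covers counting error only, treats genes as independent and is not a test. ZNF and ZFP genes of other chromosomes, in contrast, were at the genome-wide level, with 44 of 283 (15.5%, 11.8% to 20.2%). Among the latter, 14 of 83 genes (16.9%, 10.3% to 26.3%) in clusters of at least 5 and 30 of 200 (15.0%, 10.7% to 20.6%) outside such clusters had an interval.

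The arms of chromosome 19 differed for all genes, and the members are unevenly spread over them. The chromosome was divided at its longest stretch without a protein-coding gene, from 24129968 to 29205320, which holds the centromere. The short arm carried 231 intervals, or 9.58 per Mb, and the long arm 41, or 1.40 per Mb, whereas the median score was 27 on both. Among the other genes, 103 of 564 on the short arm (18.3%, 15.3% to 21.7%) and 33 of 632 on the long arm (5.22%, 3.74% to 7.24%) had an interval at an end. The long arm, where few genes of any kind had an interval, carries 171 of the 255 members.

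Within each arm, the share of members was below that of the other genes. On the short arm, 4 of 84 members (4.76%, 1.87% to 11.6%) had an interval. On the long arm, 1 of 171 members did (0.585%, 0.103% to 3.24%). In neither arm did the Wilson interval of the members overlap that of the other genes, which is a description and not a test. The neighbours of the members, however, also had few intervals. Of 92 other protein-coding genes lying inside the clusters of members, 4 had an interval at an end (4.35%, 1.70% to 10.7%), and this interval overlapped that of the members. These 4 were ECSIT, ACP5, CCDC106 and ZSCAN22, whose zinc finger symbol the naming rule leaves out. The 92 genes included 8 olfactory receptor genes in the cluster from ZNF414 to ZNF846. They also included genes with other zinc finger symbols, 3 in the cluster from ZNF628 to ZNF835 and 5 in that from ZNF264 to ZNF446. On the short arm, 2 of 25 genes inside the clusters and 101 of 539 outside had one. On the long arm these counts were 2 of 67 and 31 of 565. With so few genes, neither a difference between the members and these neighbours nor its absence can be read from the shares.

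**Figure D3:**
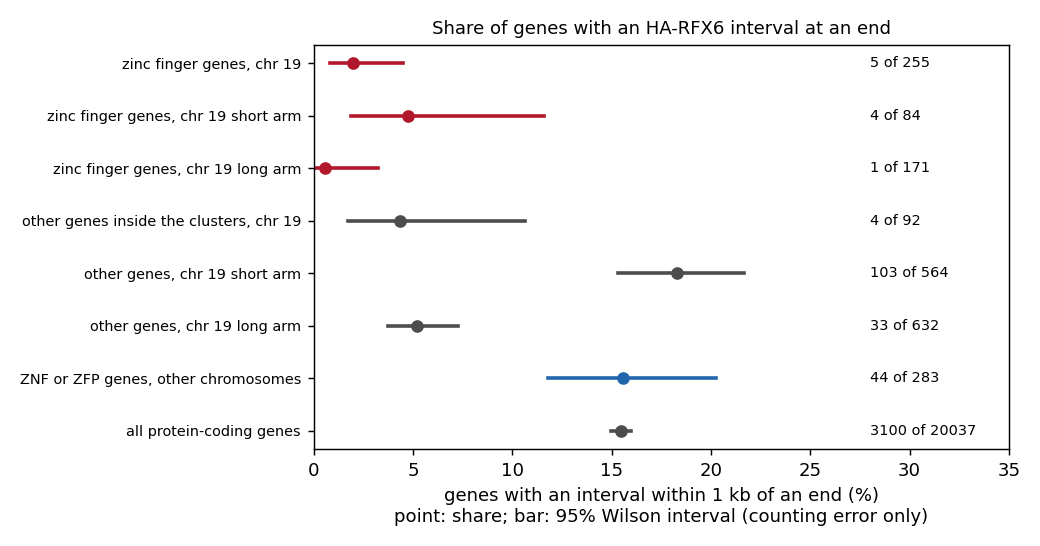
Percentage of genes with an interval midpoint within 1 kb of an annotated end, by gene group, with points for the share and bars for the 95% Wilson interval. The zinc finger genes of chromosome 19 are at 1.96%, other genes inside their clusters at 4.35%, and ZNF or ZFP genes of other chromosomes at 15.5%.

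Along the chromosome, members were joined into a cluster when the gap between them was at most 500 kb. This gave 21 groups, of which 10 had at least 5 members and held 240 of the 255. A member with an interval was found in 3 of these 10 clusters. The first, from ZNF554 to ZNF77 (chr19:2819868-2944971), is the shortest of the 10 and held 2 of them among 5 members and no other protein-coding gene. The second, from ZNF653 to ZNF791 (chr19:11483429-12633834), held 5 intervals, all between 11505253 and 11577686, and 1 of its 25 members, ZNF653, had an interval at an end. The last, from ZNF264 to ZNF446 (chr19:57191500-58489533), held 2 intervals and had 1 of 43 members, ZNF837, with an interval. ZNF333 stood alone.

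In 5 clusters of at least 5 genes no interval was found anywhere, and these clusters held 135 members over 9.33 Mb. The largest in extent ran from ZNF101 to ZNF254 on the short arm beside the centromere (chr19:19668153-24129968) and held 37 members. The one with most members, 41, ran from ZNF175 to ZNF331 on the long arm (chr19:51571283-53580269). Over all groups of members, 14 intervals were counted, namely 5.15% of the intervals of chromosome 19 in 26.9% of its annotated length. Of these 14, 5 lay at starts of members. The interval with the highest score among the rest, 50, lay at chr19:7488818-7489169 inside PEX11G, a peroxisomal membrane protein gene, and another with a score of 49 lay at chr19:9079727-9079990, 7203 bp from the nearest coding gene end, that of the olfactory receptor gene OR1M1.

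The promoter windows of the members, from 250 bases before to 50 after the start, were then compared with those of other genes. Their median GC content was 60%, compared with 64% for other genes of chromosome 19, 63% for ZNF and ZFP genes elsewhere and 62.7% for all. Over the genome, genes with an interval at an end had a median of 68%. The members with an interval had 69.3% (ZNF554), 65% (ZNF57), 61.3% (ZNF653), 64.3% (ZNF333) and 65.7% (ZNF837), all above the median of the members. CpG dinucleotides numbered 34 in ZNF554, 29 in ZNF57, 20 in ZNF653, 22 in ZNF333 and 33 in ZNF837, compared with a median of 20 in the members.

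When promoters were divided by GC content, all 5 members with an interval fell between 60% and 70%, where they were 5 of 95 (5.26%, 2.27% to 11.7%). In the same range, 57 of 426 other genes of chromosome 19 had an interval (13.4%, 10.5% to 16.9%). At 50% to 60%, 0 of 108 members had an interval (up to 3.43%), compared with 19 of 236 other genes of the chromosome (8.05%, 5.21% to 12.2%). Above 70%, where the other genes had their highest share, it was 0 of 14 members (up to 21.5%) and 41 of 225 other genes (18.2%, 13.7% to 23.8%). The arms were then taken apart within these ranges. Up to 60%, 0 of 46 members of the short arm had an interval (up to 7.71%), compared with 16 of 111 other genes (14.4%, 9.07% to 22.1%), and these Wilson intervals did not overlap. On the long arm, 0 of 67 members (up to 5.42%) compared with 5 of 201 other genes (2.49%, 1.07% to 5.69%), which overlapped. From 60% to 70%, 4 of 25 members (16%, 6.40% to 34.7%) and 38 of 181 other genes (21.0%, 15.7% to 27.5%) of the short arm had an interval, and these overlapped. On the long arm the numbers there were 1 of 70 members (1.43%, 0.253% to 7.66%) and 19 of 245 other genes (7.76%, 5.02% to 11.8%), and these also overlapped. Above 70%, the short arm had 0 of 2 members and 35 of 142 other genes with an interval. On the long arm these counts were 0 of 12 and 6 of 83. Members thus differed from the other genes in GC content and in their spread over the arms. The part of either in their low share was not tested.

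Motifs were searched on both strands of the 222 promoter windows. The RFX core (GTTGCC) was present in 23 of the 222 (10.4%, 7.003% to 15.1%), close to the 12.6% of all 15843 windows. The longer palindromic RFX X-box, which contains this core and was searched with up to 2 mismatches, was present in 8 (3.60%), compared with 2.51% of all. Among the 5 members with an interval, 0 windows held either motif. Over the genome the RFX core was in 12.3% of windows of genes with an interval at an end and 12.6% of those without. The ZNF143 core was present in 11 windows (4.95%), compared with 3.14% of all, and ZNF554 was the only one of the 5 members with an interval that held it. Such matches are letters in a window of 300 bases, and intervals can reach beyond it. Apart from the X-box, only exact matches were searched, so sites that differ from these letters were not counted.

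The ETS core (CCGGAAG), bound by a large family of activators of housekeeping promoters, was the motif by which the members differed most from other genes of the chromosome. It was present in 100 of 222 windows (45.05%, 38.6% to 51.6%), compared with 12.9% of other genes of chromosome 19 (10.9% to 15.1%), 14.2% of all windows, and 33.3% of ZNF and ZFP genes elsewhere (27.6% to 39.6%). Because the members arose by duplication, their promoters are not independent. Of 112 ETS cores in these windows, 90.2% began within 100 bases before the start or after it, with a median of 18 bases before the start. At ZNF653 and ZNF333 the core lies at the start itself, as shown in capitals in 30 bases around it (GRCh38.p14, chr19:11505820-11505849, - strand, and chr19:14690033-14690062, + strand, both from the RefSeq promoter table). ZNF653 has it as CTTCCGG, the reverse complement.
ZNF653: gatgcgcgccaCTTCCGGtctggctcctaa
ZNF333: cggccccgagaCCGGAAGcggaagtgcgcg
The other 3 members with an interval had none. An interval was found at 2 of the 100 members with the core and at 3 of the 122 without it. Over the genome it was found at 22.9% of genes with the core (21.2% to 24.7%) and 14.7% without (14.1% to 15.3%). Among ZNF and ZFP genes elsewhere it was found at 14.3% with the core (8.17% to 23.8%) and 16.9% without (11.8% to 23.6%). The shares among members were 2% (0.550% to 7.001%) and 2.46% (0.840% to 6.98%), and with so few genes neither a difference nor its absence can be read from them.

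CCAAT boxes, bound by the factor NF-Y, which acts with RFX proteins at MHC class II promoters, were added to the search after the promoter sequences had been read. A box was present in 117 of 222 windows (52.7%, 46.1% to 59.2%), compared with 36.4% of all and 37.2% of other genes of chromosome 19. For ZNF and ZFP genes elsewhere it was 42.9% (36.6% to 49.3%), and this Wilson interval overlapped that of the members. At least 3 boxes were present in 10 of the 222 (4.50%), close to the 4.002% of all windows and below the 6.85% of other genes of chromosome 19. Of these 10 members, 4 lay in the cluster from ZNF554 to ZNF77, as the capitals above show. ZNF77 had 6 boxes, ZNF555 and ZNF556 had 5 each and ZNF57 had 4, while ZNF554 had 2. The 2 genes of this cluster with an interval had fewer boxes than the 3 without, but so few neighbouring genes allow no conclusion. ZNF653, ZNF333 and ZNF837 had 0. Over the genome a box was present in 36.6% of windows of genes with an interval at an end and in 36.3% of those without. At least 3 boxes were present in 5.24% of windows of genes with an interval at an end.

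**Figure D4:**
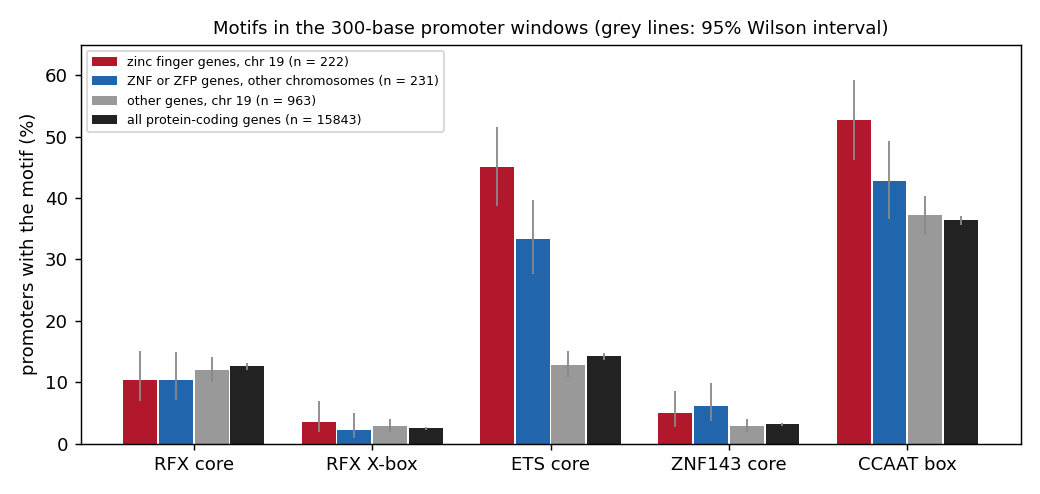
Percentage of 300-base promoter windows that hold each motif, for 4 gene groups (bars), with grey lines for the 95% Wilson interval. The ETS core is present in 45.05% of zinc finger gene windows of chromosome 19 and in 14.2% of all windows, whereas the RFX core is at 10.4% and 12.6%.

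Finally, genes of the machinery through which KRAB zinc finger proteins repress were looked up, from a list of 25 co-repressors, heterochromatin proteins and partners. An interval at an end was found at 5 of the 25 (20%, 8.86% to 39.1%), compared with 15.5% of all genes, and all were at the start. CBX5, which encodes the heterochromatin protein HP1 alpha, had 2 intervals with scores of 51 and 25. HDAC2, a histone deacetylase, had 1 with a score of 59, CHD4, a nucleosome remodeler, 1 with a score of 42, and SUMO2, a small modifier, 1 with a score of 34. On chromosome 19, DNMT1, the maintenance DNA methyltransferase, had an interval of 514 bp with a score of 39 and its midpoint 8 bp outside the start (chr19:10194705-10195218). TRIM28 itself, which lies beyond the last zinc finger cluster of the long arm, had none, and the nearest interval was 22.4 kb away. SETDB1, the histone methyltransferase brought in by TRIM28, had none either.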

How the data were processed

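The authors carried out ChIP-seq on MHCC-97H cells (1 HA-RFX6 ChIP and 1 input library, grouped by title) and had a company analyse it. Per the study's methods, peaks were called from mapped reads with MACS. The submitters' processing notes list MACS2 2.1.0.2 and GRCh37. The deposited list gives 1 score per line, made by the authors, whose definition is not given in the sources used here, nor are the aligner, the control and the handling of multi-mapping reads.

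Of 6214 lines, identical intervals were joined, each with its highest score, 1 line with digit separators was repaired, and 3 mitochondrial intervals were set aside. Starts were read as 0-based and are printed 1-based. Genes came from RefSeq GRCh38.p14 (59679 genes). Despite the notes, the intervals matched GRCh38. On the short arm of chromosome 19, 108 of 231 lay within 1 kb of a coding gene end, and at most 46 after any move of 5 to 700 kb. On the long arm the numbers were 28 of 41 and 13.

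An interval was counted at a gene end when its midpoint was within 1 kb. Strand and promoter sequences came from the RefSeq promoter table. The members with an interval, those nearest the limit and listed genes with an interval were named, and other genes were named after their values were seen. Members and lists were chosen with earlier results of these data known. No test was run, since 1 library has no replicate error. The procedure was tested on simulated data. Protein features were not analysed here. Python 3.11.15, numpy 2.4.6, pandas 2.3.3, scipy 1.17.1 and matplotlib 3.10.9 were used.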

Additional observations from a re-analysis of the deposited data

How the results depend on the processing

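The count of 5 members with an interval stayed at 5 or 6 with windows of 500 bp, 2 kb and 5 kb, with any overlap, after merging, without read-through genes and with starts from the promoter table. With a score of at least 30 it was 3, all at the start (9.5% of all genes). With intervals moved 20 kb up it was 2, both at starts, 2 members had an interval in the body, and the ratio of shares was 0.335 (0.784% of members and 2.34% of other genes of the chromosome). Moved down it was 0, with 0 at the start and 4 in the body, and the ratio of shares was 0 (3.26% of other genes). At the far end the count became 1 (ZNF358) with windows of 2 kb and 5 kb. The ratio to other genes of the chromosome was 0.261 on the short arm and 0.112 on the long arm. It was 0.451 against other genes inside the clusters, outside the interval of the main ratio. The ratio of 0 after the move down was also outside it, whereas 0.335 after the move up and the ratios of both arms were inside. Lying inside or outside that interval is a description and not a test. The comparisons by arm and with other genes inside the clusters were chosen after seeing the data. No paired analysis was possible because a single ChIP library gave a single list, and no replicate could be left out. Without read depth, weak enrichment at members cannot be limited.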

Other observations

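Genes with other zinc finger symbols (ZSCAN, ZBTB, ZIM, ZIK, ZFR, MZF and PEG3), which the naming rule leaves out, numbered 16 on chromosome 19. Of them, 3 had an interval at an end (18.8%, 6.59% to 43.0%), compared with 15.5% of all protein-coding genes. Among the 12 with a strand, 2 had it at the start and 1 at the far end. Most of the 16 lie on the long arm, and all 3 with an interval lay near its end, as ZNF837 does. On that arm 5.22% of the protein-coding genes other than members (3.74% to 7.24%), these genes included, had an interval at an end. With so few genes, neither a difference from that share nor its absence can be read. ZSCAN22 had an interval at chr19:58326749-58327068 with a score of 27, ZBTB45 at chr19:58513805-58514129 with a score of 55 and MZF1 at chr19:58573013-58573239 with a score of 27. These genes were singled out after their values were seen.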
